A study of Mus musculus with 288 samples.

Results

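The 184 genes of the ion channel families were described across the cells of a single-cell RNA-seq series from the mouse upper small intestine. They were chosen by symbol alone, as those that start with Kcn, Hcn, Cacna, Cacnb, Cacng, Trpc, Trpm, Trpv or Clcn, or with Scn or Ano followed by a digit, without Kcnj11, and they are 184 of the 46078 mouse genes in the count table. The labels call all 288 samples L-cells, the gut endocrine cells that make proglucagon, and each sample was a well into which a single cell was to be sorted. The study's text allows that a few wells held small clumps of enterocytes around a labelled cell. By the study's methods the animals were 3 male GLU-Venus mice on a C57BL6 background, aged 20 to 21 weeks, whose transgene drives the fluorescent protein Venus from the proglucagon promoter. All were untreated, so every comparison here is between kinds of cell within a mouse. The cells fall in 3 pools of 96, SLX-11175, SLX-11179 and SLX-9703, and each pool was taken as 1 mouse. Dimly fluorescent cells were collected too, and some wells held Venus-negative cells, which the labels do not mark. By the study's text these came with the mice sequenced at low depth, and the 96 cells of the deeply sequenced mouse were Venus-positive.

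Ion channels set the membrane potential of endocrine cells. Voltage-gated sodium and calcium channels carry the inward current of action potentials, calcium entry triggers the release of hormone granules, and potassium channels hold the cell negative at rest and end each spike. In L-cells, closure of ATP-sensitive potassium channels and sodium-coupled glucose uptake are known to depolarise the membrane and start secretion.

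Cells were used if they had at least 20000 reads on mouse genes and at most 20% of them on mitochondrial genes, which left 250 of 288 cells. They were classed by hormone reads in CPM, the reads of a gene scaled to the same total of mouse gene reads in each cell. Gcg-high cells had at least 10000 CPM of Gcg (proglucagon), Gip-high cells at least 10000 CPM of Gip (the hormone of K-cells), and Pzp-positive cells at least 100 CPM of Pzp, a protease inhibitor. The pools, in the order above, gave 16, 18 and 19 Gcg-high cells, 10, 5 and 10 Gip-high cells, and 14, 22 and 28 Pzp-positive cells. The 5 cells that met more than 1 threshold were left out. Outside the 3 classes, 37 cells had at least 10000 CPM of Cck and are called Cck-high, and the other 66 are called hormone-poor. The cells nearest to the thresholds had 11120 and 9545 CPM of Gcg, 10820 and 9169 CPM of Gip, and 104 and 92.2 CPM of Pzp. No channel gene took part in the classing. Reads were summed per pool and class, since cells of a mouse are not replicates, and all tests compare these sums over n = 3 pools.

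Depth differed between pools, with medians of 52571, 70726 and 1975706 reads per cell, so the sums of SLX-9703 are the most precise. The classes were checked against marker lists. The summed level of 5 markers of L-cells was 1670 to 3220 CPM in Gcg-high cells and 228 to 436 CPM in Gip-high cells. Most of the Gcg-high sum was Pyy, Cck-high cells reached 1260 to 5400 CPM, and Abcc8, another of the 5, was higher in Gip-high sums (162, 147 and 312 CPM) than in Gcg-high sums (134, 116 and 140 CPM). Of 5 general endocrine markers, Chgb included, the sum was 14000 to 31200 CPM in Gcg-high, 2770 to 6060 CPM in Pzp-positive, 894 to 4270 CPM in Gip-high and 375 to 924 CPM in hormone-poor cells. The range of the Gip-high sums lay below that of the Gcg-high sums, and 5, 4 and 5 of the Gip-high cells per pool had 100000 CPM of Gip or more. Pzp-positive cells held 4620 to 5780 CPM of 5 goblet cell markers, nearly all of it Tff3, against 402 to 734 CPM in Gcg-high cells. Hormone-poor cells held 1680 to 32000 CPM of 5 leukocyte markers and 638 to 11300 CPM of 5 enterocyte markers, so more than 1 kind of cell was among them. In SLX-9703, the deeply sequenced pool, they were sorted as Venus-positive, while in the other pools Venus-negative cells may be among them. Fewer cells of a kind and less RNA per cell cannot be told apart in such sums.

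Of the 184 genes, 179 are protein-coding and 5 are antisense transcripts. A symbol does not make a channel: Trpc4ap encodes a protein that associates with a Trp channel, Kcnrg a regulator, Kcnip genes calcium-binding partners, and Kcne, Kcnab, Kcnmb, Cacnb, Cacna2d, Cacng and Scn beta genes auxiliary subunits. No read was found for 12 members in the cells used, among them Trpc6, Kcnj1, Cacng1 and Kcna10, and 68 more had reads in fewer than 10 cells. Enough reads for a test between the 3 endocrine classes were found for 50 members, and for 60 once the hormone-poor cells were added. 41 members exceeded 1 CPM per kb of exon in the mean of the 3 classes. Exons of 51 members overlap those of another gene, and the counting could not separate strands for a kit that does not mark them.

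Per length, few genes of each family carried most of its reads. Levels are given here as CPM per kb of exon, averaged over the pools and the 3 endocrine classes, since levels of different genes compare only per length. Leaving Scn4b aside, the highest were Kcnk1, a tandem-pore potassium channel subunit, at 19.7 CPM per kb, Kcnh6, an erg-type potassium channel, at 16.5, Kcnk16, a tandem-pore channel known from pancreatic beta cells, at 15.2, and Cacnb3, a cytoplasmic calcium channel subunit, at 15.2. They were followed by Cacna2d1 at 10.8 and Cacna1a, the pore of P/Q-type calcium channels, at 10.1 CPM per kb. Whole families stayed near the floor. The highest Kcna gene, Kcna7, reached 0.206 CPM per kb, the highest Kcnab gene 0.254, the highest Kcnip gene 0.175 and the highest Trpv gene, Trpv3, 0.476 CPM per kb. When each cell weighed the same, 27 of the 28 families kept their highest gene, the exception being Trpv, where Trpv2 took the place of Trpv3.

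**Figure D1:**
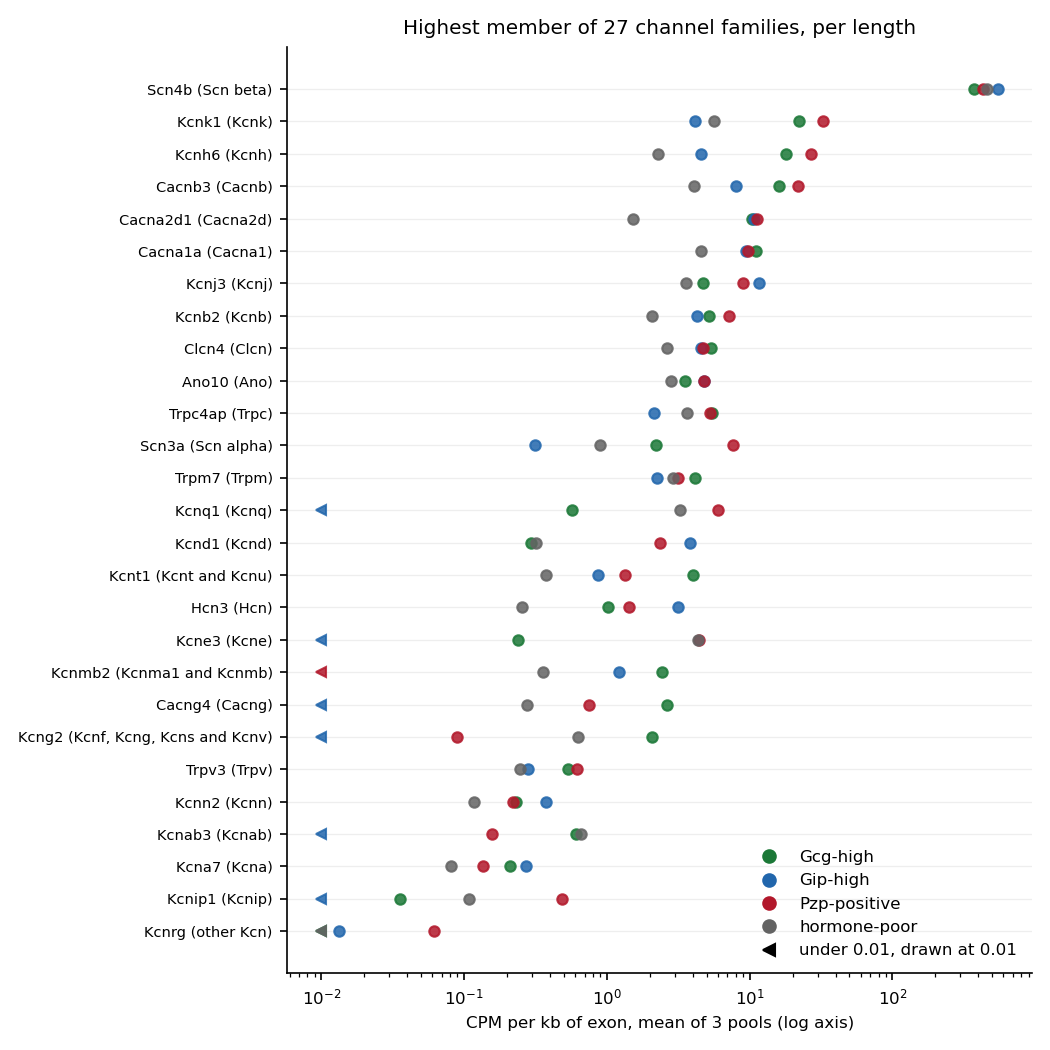
Level of the highest member of 27 of the 28 families, in CPM per kb of exon on a log axis, as the mean of 3 pools in Gcg-high, Gip-high, Pzp-positive and hormone-poor cells; triangles mark values under 0.01. Scn4b stands far to the right in every class, and the Gip-high points of Kcnq1, Kcne3, Cacng4, Kcng2, Kcnab3 and Kcnip1 lie under 0.01, as do Kcnmb2 in Pzp-positive cells and Kcnrg in Gcg-high and hormone-poor cells.

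Among the calcium channel genes, Cacna1a (chromosome 8, 84388440 to 84640246 on the plus strand, mm10) had 112, 138 and 129 CPM in the Gcg-high sums of the 3 pools, 121, 82.3 and 122 CPM in Gip-high, 88.2, 137 and 110 CPM in Pzp-positive, and 13.99, 85.2 and 58.6 CPM in hormone-poor sums. The 3 endocrine classes overlapped with one another, and the highest hormone-poor sum lay above the lowest Gip-high sum. The difference from hormone-poor cells was 0.72 on the log2 scale (SE 0.42), with an adjusted p of 0.412 by edgeR's quasi-likelihood test. In the deep pool Cacna1a had a read in all 57 endocrine cells of the 3 classes, with class medians of 112 to 135 CPM, and a median of 15.9 CPM in the 15 hormone-poor cells.

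Cacna2d1 (chromosome 5, 15934691 to 16374511, plus strand) encodes the extracellular subunit that brings calcium channel pores to the membrane. Its level in CPM was 144, 111 and 131 in Gcg-high, 259, 53.7 and 85.1 in Gip-high, and 91.8, 104 and 223 in Pzp-positive sums, against 7.37, 23.3 and 25.9 in hormone-poor sums. Every endocrine sum exceeded every hormone-poor sum. The mean of the 3 classes was higher by 2.21 on the log2 scale (SE 0.555, edgeR adjusted p = 0.0338, higher in each pool). Leaving out SLX-9703 or SLX-11175 moved the adjusted p to 0.196 or 0.156. Against the hormone-poor cells that had no read of Ptprc, Coro1a or Cd3e the difference was 1.64, with an adjusted p of 0.248. Between the endocrine classes Cacna2d1 gave no call.

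Cacnb3 had 72.3, 23.8 and 95.8 CPM in Gcg-high, 0, 50.1 and 46.5 CPM in Gip-high, and 36.5, 80.8 and 144 CPM in Pzp-positive sums, and the classes overlapped. The L-type pores ran in different orders: Cacna1c had 49.95, 50.1 and 15.5 CPM in Gip-high sums against 9.41, 5.55 and 8.86 CPM in Pzp-positive sums. These did not overlap, yet the difference of 2.77 on the log2 scale (SE 0.76) had an edgeR adjusted p of 0.0677. DESeq2 called it (adjusted p = 0.000347). It also called Cacna1c for Gip-high against Gcg-high cells (0.0498) and for the 3 classes against hormone-poor cells (0.0277). Cacna1d had 24.1, 5.005 and 15.9 CPM in Gcg-high and 35.3, 13.6 and 16.2 CPM in Pzp-positive sums, and at most 2.49 CPM in any hormone-poor sum. The difference of the 3 classes from hormone-poor cells was 3.26 (SE 0.945, edgeR adjusted p = 0.0686), and DESeq2 called it (0.00215). In the deep pool Cacna1d averaged 2.1 CPM per cell in Gip-high and 2.49 CPM in hormone-poor cells. Cacna1h, a T-type pore that opens at low voltage, had 22.3, 23.1 and 51.4 CPM in Gcg-high and 54.1, 42.6 and 63.1 CPM in Pzp-positive sums, and 18 of 19 deep Gcg-high cells had reads of both Cacna1a and Cacna1h. Cacng4, known as a partner of AMPA receptors, had 7.14, 10.6 and 10.6 CPM in Gcg-high sums and 1 read in all Gip-high cells, where the edgeR adjusted p was 0.129. Cacna2d3 had too few reads to pass the low-count filter. With the filter dropped, edgeR called it higher in Gip-high than in Pzp-positive cells (log2 difference 6.23, adjusted p = 0.0297). It was then also called for the 3 classes against hormone-poor cells (8.43, edgeR adjusted p = 0.0121). It had 21.4, 0 and 30.2 CPM in Gip-high sums, with at most 4.30 CPM in Gcg-high, 1.18 CPM in Pzp-positive and 0 in hormone-poor sums, and its reads in the deep pool came from 3 of 10 Gip-high cells.

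Of the sodium channel genes, edgeR with the settings used throughout called 1 between the endocrine classes, Scn3a, and DESeq2 also called Scn9a, Scn3b and Scn4b. With each cell thinned to 20000 reads, edgeR also called Scn4b between Gip-high and Pzp-positive cells (log2 difference 1.58, adjusted p = 0.0395). Scn3a (chromosome 2, 65457118 to 65567627, minus strand), an alpha subunit that forms the pore, had 80, 102 and 105 CPM in Pzp-positive sums, 9.82, 29.4 and 44.02 CPM in Gcg-high sums, and 4.76, 5.37 and 1.53 CPM in Gip-high sums. The 3 classes did not overlap, with Pzp-positive at the top and Gip-high at the bottom. Gip-high cells were lower than Pzp-positive cells by 4.34 on the log2 scale (SE 0.828, edgeR adjusted p = 0.00866, lower in 3 of 3 pools). Leaving out SLX-9703 gave 0.144 for this adjusted p, and leaving out SLX-11179 gave 0.0893. Against Gcg-high cells the Gip-high difference was -2.70 (adjusted p = 0.148 by edgeR), and Gcg-high against Pzp-positive was -1.64 (adjusted p = 0.925).

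A second alpha subunit and an auxiliary subunit followed the same order of means. Scn9a had 20, 9.26 and 32.4 CPM in Pzp-positive sums and at most 3.57 CPM in any other sum. The edgeR adjusted p was 0.551 against Gcg-high and 0.19 against Gip-high cells. In the deep pool its reads came from 17 of 28 Pzp-positive cells, with a median of 0.442 CPM and a highest cell at 407 CPM, so a few cells carried most of them. All 17 of those cells also had Scn3a reads. Scn3b, a beta subunit, had 57.6, 76.5 and 58.8 CPM in Pzp-positive, 17.9, 41.3 and 28.9 CPM in Gcg-high, 2.38, 14.3 and 4.73 CPM in Gip-high, and at most 7.28 CPM in hormone-poor sums. The classes again did not overlap. The Gip-high to Pzp-positive difference of -2.65 (SE 0.697) had an edgeR adjusted p of 0.0574. It passed in 5 of 15 alternative analyses, 4 of them with edgeR (adjusted p 0.0105 to 0.0185). Over the 15 the log2 difference ran from -5.48 to -0.44, and the largest edgeR adjusted p was 0.765. Scn8a stayed between 1.52 and 28.4 CPM in all of these sums, and Scn1a and Scn2a had 52 and 81 reads in all cells used.

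Scn4b stood apart from every other member. This beta subunit had 1361 to 3760 CPM in every sum of the 3 classes and 2113 to 2667 CPM in hormone-poor sums, a mean of 452 CPM per kb in the 3 endocrine classes, and a read in all 250 cells. Its reads varied less per read outside genes than per gene read in each pool. In the deep pool the coefficient of variation over the 88 cells was 0.162 per read outside genes and 0.882 per gene read, and only 1 of 1995 genes with a mean of 100 reads or more varied less per read outside genes. Across those cells Spearman's rho of the Scn4b reads was 0.804 with the reads outside genes and -0.301 with the gene reads, a description over cells that share a library preparation. In the shallow pools rho with the reads outside genes was 0.904 over 75 cells and 0.816 over 87 cells, and with the gene reads it was 0.566 and 0.429. What these reads come from was not tested. Trpc7 in the deep pool, with 0.511 against 0.918, and Kcnc2, with 0.628 against 1.2, also varied less per read outside genes than per gene read.

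**Figure D2:**
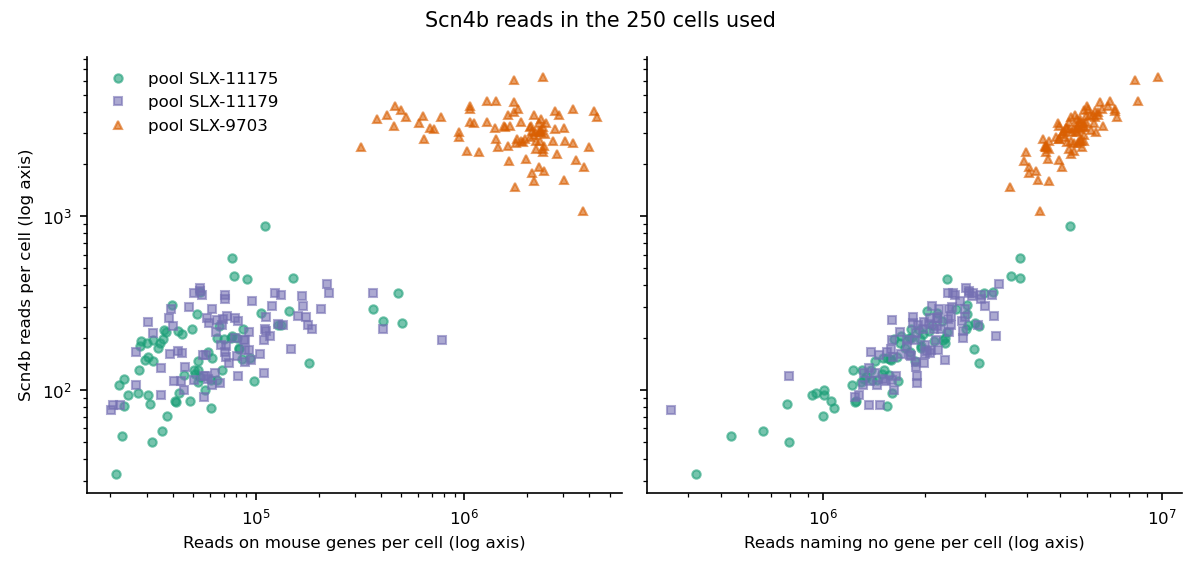
Scn4b reads in each of the 250 cells against the reads on mouse genes (left) and against the reads naming no gene (right), all axes log, with symbols for the 3 pools. The points of the deep pool form no rising line on the left, with a rho of -0.301, and a narrow rising band on the right, with a rho of 0.804.

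Voltage-gated potassium channels gave the clearest contrast in Kcnc1. This gene (chromosome 7, 46396497 to 46438704, plus strand) encodes a fast delayed rectifier known for brief, rapidly repeated spikes in neurons. It had 28.2, 54.9 and 137 CPM in Pzp-positive sums, 0.893, 4.38 and 7.85 CPM in Gcg-high sums, and 0, 0 and 0.146 CPM in Gip-high sums. The Pzp-positive sums lay above all Gcg-high and Gip-high sums. In the shallow pools 3 Gip-high reads would have been 7.14 and 5.37 CPM, more than the Gcg-high levels there, and Gip-high against Gcg-high cells had an edgeR adjusted p of 0.104, which passed in 2 of 15 alternative analyses. All Gip-high cells together had 2 reads of Kcnc1 and the Pzp-positive cells 8159, a ratio of 977 per gene read with a 95% counting interval of 271 to 8070, set mostly by the deep pool. Without SLX-9703 the Gip-high cells had no read, and Kcnc1 was at least 14.9-fold higher in Pzp-positive cells. The edgeR adjusted p was 0.00154 for Gip-high against Pzp-positive cells, and 0.158 without SLX-9703. For Gcg-high against Pzp-positive cells the difference was -3.89 (SE 0.832) with an adjusted p of 0.0763, so it was not called. It passed in 6 of 15 alternative analyses. Cck-high cells lay between, with 3.53, 17.4 and 74.05 CPM. In the deep pool 27 of 28 Pzp-positive cells, 13 of 15 Cck-high cells, 7 of 19 Gcg-high cells and 6 of 15 hormone-poor cells had a read of Kcnc1, with medians of 131, 41.3, 0 and 0 CPM.

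Other delayed rectifiers were spread more evenly. Kcnb2 had 67.8, 84.5 and 83.9 CPM in Gcg-high, 38.05, 76.98 and 79.1 CPM in Gip-high, and 95.3, 114 and 116 CPM in Pzp-positive sums, and 14.7, 56.7 and 22.6 CPM in hormone-poor sums. It gave no call in any of the 4 comparisons. Kcnh6 (chromosome 11, 106008124 to 106034549, plus strand) had 78.6, 51.9 and 61.6 CPM in Gcg-high, 112, 80.2 and 93.5 CPM in Pzp-positive and 28.5, 12.5 and 7.94 CPM in Gip-high sums, and 4.79, 10 and 9.67 CPM in hormone-poor sums. Gip-high sums lay below all other endocrine sums and overlapped with the hormone-poor ones. The mean of the 3 classes was higher than in hormone-poor cells by 1.82 (SE 0.481, edgeR adjusted p = 0.0449), a call that passed in 4 of 16 alternative analyses. Over those 16 the log2 difference ran from 0.82 to 2.38. The adjusted p was 0.241, 0.116 and 0.31 without SLX-11175, SLX-11179 and SLX-9703 in turn. The Gip-high to Pzp-positive difference of -2.00 had an edgeR adjusted p of 0.0639, and DESeq2 called it (0.00872).

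Kcnq1, a slowly activating channel of epithelia, and its partner Kcne3 had their higher sums in Pzp-positive and hormone-poor cells. Kcnq1 (chromosome 7, 143106362 to 143427042, plus strand) had 3.53, 40.1 and 30.5 CPM in Pzp-positive sums, 2.68, 1.88 and 2.46 CPM in Gcg-high sums, no read in Gip-high sums, and 7.37, 19.1 and 13.8 CPM in hormone-poor sums. Pzp-positive and hormone-poor sums overlapped. In deep Pzp-positive cells Kcnq1 had a median of 1.83 CPM, an upper quartile of 18.9 CPM and a highest cell at 211 CPM. Its level there thus rested on a minority of the cells. With a floor of 3 reads over the group, Kcnq1 was at least 149-fold higher in Pzp-positive and at least 67.7-fold higher in hormone-poor than in Gip-high cells. These bounds cover counting error only and not the spread between cells. Without SLX-9703 these bounds were 8.98-fold and 4.5-fold, and in SLX-11175 the Pzp-positive sum of 3.53 CPM lay under the 7.14 CPM that 3 reads make in the Gip-high sum. Averaged over the 3 classes it was lower than in hormone-poor cells (edgeR adjusted p = 0.0204, and 0.073, 0.0939 and 0.119 without SLX-11175, SLX-11179 and SLX-9703 in turn), and this average includes the Gip-high sums at 0. The antisense transcript Kcnq1ot1 (143203458 to 143296549, minus strand), which lies within Kcnq1 and silences neighbours on one parental copy, was lower by 2.34 (SE 0.513, edgeR adjusted p = 0.0168, 0.0926 without SLX-11175 and 0.247 without SLX-9703). It had 4.34 to 11.3 CPM in Gcg-high, 22.2 to 42.6 CPM in Pzp-positive and 17.7 to 64.7 CPM in hormone-poor sums. Exons of the pair overlap on opposite strands, so their reads cannot be told apart there. Kcne3 had 11.8, 8.64 and 3.17 CPM in Pzp-positive sums, at most 1.25 CPM in Gcg-high sums and no read in Gip-high or Cck-high cells. Its Pzp-positive reads came from 3 of 64 cells, and those of the deep pool from 1 cell at 79.5 CPM.

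Tandem-pore potassium channels, which leak at rest, were led by Kcnk1 and Kcnk16. Kcnk16 (chromosome 14, 20261376 to 20269199, minus strand) had 58.9, 41.3 and 56.4 CPM in Gcg-high, 27.1, 67.9 and 73.8 CPM in Pzp-positive and 10.6, 38.9 and 36.1 CPM in Cck-high sums. In Gip-high sums it had 0, 0 and 0.364 CPM, where 3 reads would have been 7.14, 5.37 and 0.218 CPM, and in hormone-poor sums 0, 0.303 and 0.226 CPM. Gip-high and hormone-poor sums were thus below every Gcg-high, Pzp-positive and Cck-high sum. All Gip-high cells held 5 reads against 2927 in Gcg-high and 4484 in Pzp-positive cells, ratios per gene read of 165 (70.5 to 508) and 215 (92 to 662) with 95% counting intervals. Over the shallow pools alone, where Gip-high cells had no read, Kcnk16 was at least 15.8-fold and at least 17.6-fold higher. Kcnk16 was lower in Gip-high than in Gcg-high cells (edgeR adjusted p = 0.00196) and than in Pzp-positive cells (adjusted p = 0.00123), in 3 of 3 pools each. Without SLX-9703 the adjusted p was 0.0733 and 0.0588, and with Gip-high cells of 100000 CPM or more alone it was 0.00386 and 0.00276. With cells of more than 1 threshold kept in the classes neither difference was called (0.117 and 0.0725), and the log2 differences went from -6.94 to -3.12 and from -6.74 to -3. With thresholds of 30000 and 300 CPM the adjusted p was 0.0691 and 0.0462. Over the 3 classes it was higher than in hormone-poor cells (adjusted p = 0.00349 by edgeR), which without SLX-9703 or with each cell thinned to 20000 reads was 1.

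Kcnk1 had 47.3, 22.5 and 77.8 CPM in Gcg-high and 67.1, 61.1 and 92.7 CPM in Pzp-positive sums. It had 0, 7.16 and 20.6 CPM in Gip-high and 2.21, 20.01 and 15.7 CPM in hormone-poor sums. Gip-high sums lay below all Gcg-high and Pzp-positive sums, but the difference from Pzp-positive cells, -2.32 (SE 0.749), had an edgeR adjusted p of 0.132. DESeq2 called it (adjusted p = 0.0149). Of 19 deep Gcg-high cells, 15 had reads of both genes, 2 of Kcnk16 alone and 2 of Kcnk1 alone.

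The sequences just upstream of 3 of these genes are printed because each gene was nearly without reads in some classes, Kcnk16 in Gip-high and hormone-poor cells, Kcnc1 in Gip-high cells and Kcnn4 in the endocrine classes. Each is the 250 bases before the RefSeq gene start on GRCm38, read 5′ to 3′ on the gene's strand, at chr14:20269270-20269519 (minus), chr7:46396218-46396467 (plus) and chr7:24370013-24370262 (plus). Capitals mark 2 motifs whose matches do not overlap here. The E-box CAGNTG, bound by helix-loop-helix factors, was searched on the gene's strand only. The GC box GGGCGG, bound by Sp factors, was searched on both strands.
Kcnk16: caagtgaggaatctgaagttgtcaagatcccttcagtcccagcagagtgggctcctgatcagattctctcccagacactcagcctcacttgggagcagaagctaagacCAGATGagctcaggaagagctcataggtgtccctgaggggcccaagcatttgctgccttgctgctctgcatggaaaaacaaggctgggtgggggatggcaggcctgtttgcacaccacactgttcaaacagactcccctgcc
Kcnc1: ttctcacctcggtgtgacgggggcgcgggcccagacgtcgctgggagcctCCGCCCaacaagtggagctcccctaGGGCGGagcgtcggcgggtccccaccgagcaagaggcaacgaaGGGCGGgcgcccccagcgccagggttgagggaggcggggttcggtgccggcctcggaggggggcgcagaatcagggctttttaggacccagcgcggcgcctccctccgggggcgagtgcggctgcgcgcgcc
Kcnn4: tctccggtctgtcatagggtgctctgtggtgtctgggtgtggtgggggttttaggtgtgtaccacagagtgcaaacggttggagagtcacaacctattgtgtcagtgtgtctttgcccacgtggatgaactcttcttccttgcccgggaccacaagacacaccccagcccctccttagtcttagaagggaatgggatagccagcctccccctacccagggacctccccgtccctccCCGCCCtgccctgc

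The Kcnk16 window held 1 CAGNTG match, no GGGCGG match and no CG pair. The Kcnc1 window held 3 GGGCGG matches and 30 CG pairs at 74.4% G and C, and the Kcnn4 window 1 GGGCGG match and 6 CG pairs. Over 32851 windows of the same length the median was 6 CG pairs. Of these windows 31.2% held CAGNTG on the gene's strand and 32.7% held GGGCGG on either strand, so a match is common. The windows of Cacna2d1 and Kcnh6 each lacked CAGNTG on the gene's strand and held 6 and 3 GGGCGG matches. A window was given for 140 of the 184 members, and none for Scn3a or Kcnq1.

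**Figure D3:**
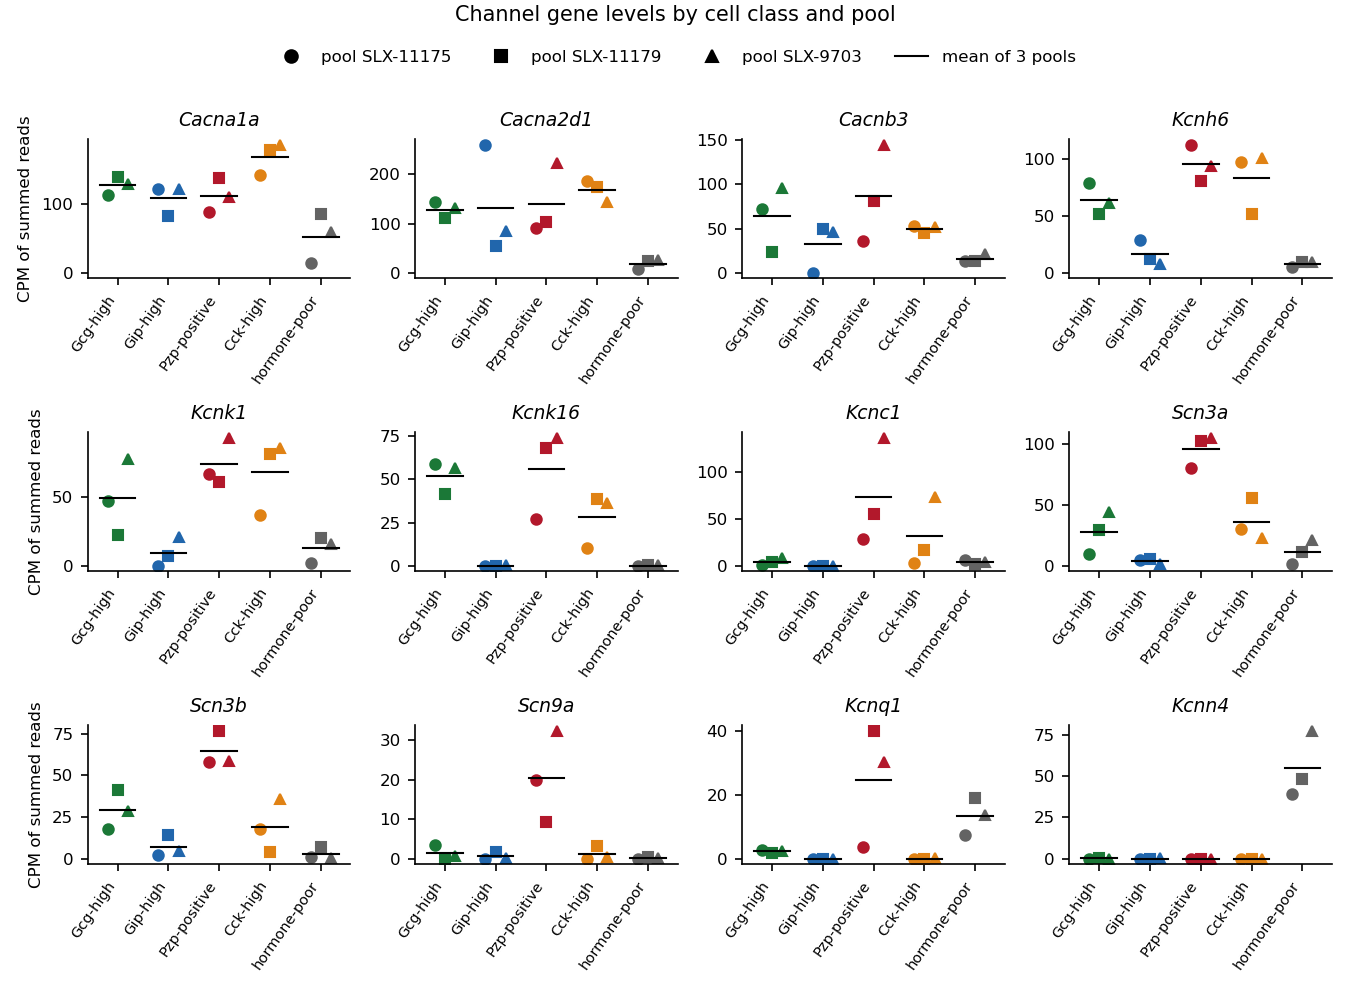
CPM of the summed reads for 12 members in Gcg-high, Gip-high, Pzp-positive, Cck-high and hormone-poor cells, 1 point per pool with its own symbol and a line at the mean of 3 pools. Kcnk16 is near 0 in Gip-high and hormone-poor cells, Kcnc1 and Scn3a are highest in Pzp-positive cells, and Kcnn4 is above 1 CPM in hormone-poor cells only.

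Kcnd1, an A-type potassium channel, had 0, 3.75 and 0.949 CPM in Gcg-high, 54.7, 5.37 and 0.437 CPM in Gip-high and 1.18, 24.1 and 12.1 CPM in Pzp-positive sums, and its edgeR adjusted p for Gcg-high against Pzp-positive cells was 0.999. Kcng2, a silent subunit that works with Kcnb partners, had 4.46, 4.38 and 9.61 CPM in Gcg-high sums, no read in Gip-high cells and at most 0.798 CPM in Pzp-positive sums. That made 488 reads against 47 in Pzp-positive cells, a ratio per gene read of 12.2 with a 95% counting interval of 9.03 to 16.8. A few cells carried most of these reads. Deep Gcg-high cells had a median of 0 CPM and a highest cell at 74.6 CPM. In deep Pzp-positive cells the upper quartile was 0 and the highest cell had 21.1 CPM. Kcng2 had too few reads for the test. Several runners-up lay well below the leader of their family per length, with Kcnh2 at 2.53, Cacnb2 at 0.67, Cacna1h at 3.33 and Hcn4 at 0.731 CPM per kb, while Kcnj5 reached 3.36 and Clcn3 4.29 CPM per kb.

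Among inward rectifiers and the calcium- and sodium-gated channels, Kcnj3, a subunit of the potassium channels that G proteins open, had 37.5, 11.9 and 24.7 CPM in Gcg-high, 28.5, 107 and 47.5 CPM in Gip-high and 32.9, 47.5 and 59.5 CPM in Pzp-positive sums, which overlapped. Its partner Kcnj5 had 0, 93.1 and 17.6 CPM in Gip-high sums and 1 read in all hormone-poor cells. The 3 classes against those cells had an edgeR adjusted p of 0.0575, and DESeq2 called the difference (0.00073). Over the 10 deep Gip-high cells the upper quartile of Kcnj5 was 1.53 CPM and the highest cell had 98.2 CPM, so few cells carried its reads. Kcnt1, a sodium-activated potassium channel, had 28.6, 37.5 and 47.9 CPM in Gcg-high sums and 17.6, 8.64 and 12.2 CPM in Pzp-positive sums, without overlap, and an edgeR adjusted p of 0.999. In the deep pool Kcnt1 had a median of 37.4 CPM in Gcg-high and 0 in Pzp-positive cells. Kcnma1, the large-conductance calcium-activated channel, had 0, 28.6 and 22.1 CPM in Gip-high sums and 1.78, 13.8 and 1.53 CPM in Gcg-high sums. Its auxiliary subunit Kcnmb2 had 16.1, 6.26 and 0.606 CPM in Gcg-high and 7.13, 0 and 4.22 CPM in Gip-high sums. It had 1 read in all Pzp-positive cells, with edgeR adjusted p of 0.273 and 0.0656 against those cells. DESeq2 called both differences (adjusted p = 0.0374 and 0.00427). In deep Gcg-high and Gip-high cells the upper quartile of Kcnmb2 was 0 and the highest cells had 5.47 and 23.8 CPM. Few cells thus carried its reads there.

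Kcnn4, the intermediate-conductance calcium-activated channel known from lymphocytes and epithelia (chromosome 7, 24370263 to 24386690, plus strand), had its reads mostly in a minority of the hormone-poor cells. It had 39.04, 48.2 and 77.5 CPM in hormone-poor sums and at most 0.626 CPM in any endocrine sum. Of the 66 hormone-poor cells 16 had a read. The highest hormone-poor cells of the deep pool had 315, 183 and 166 CPM, and the next highest had 1.9 CPM. The counts were 1634 reads against 4 in the 3 endocrine classes together, a ratio per gene read of 2210 with a 95% counting interval of 863 to 8130. The edgeR adjusted p was 3.89e-06, and leaving out SLX-9703 kept it at 6.91e-05. Leukocyte markers moved with it: 23 of the 66 hormone-poor cells had a read of Ptprc, Coro1a or Cd3e, and they held 1589 of the 1634 reads, while the other 43 cells held 45. For Kcnq1 the same 23 cells held 255 reads and the others 72, and for Kcnq1ot1 1178 and 102. Of the 72 Kcne3 reads in hormone-poor cells none came from them. Jchain, a plasma cell gene, made up 31130 and 23340 CPM of the leukocyte marker sum of hormone-poor cells in SLX-11175 and SLX-11179 and 4.64 CPM in SLX-9703, and its reads were not used to leave out cells. The part of leukocytes in the differences of Kcnq1 and Kcnq1ot1 was not tested beyond leaving out the cells with a read of Ptprc, Coro1a or Cd3e, which gave log2 differences of -4.84 (edgeR adjusted p = 0.0657) and -1.51 (0.292), against -4.93 and -2.34 with all hormone-poor cells.

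Among Hcn channels, the pacemaker family, Hcn3 led with 1.88 CPM per kb, and its sums ran from 0 to 33.3 CPM without order. Trp channels, cation channels of sensory and calcium signalling, were led by Trpm7, a channel fused to a kinase, at 3.19 CPM per kb, apart from Trpc4ap at 4.29, which is no channel. Trpm5, the channel of taste and tuft cells, had 1 read in all cells used, and Trpv1 had 22 reads in 3 cells.

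Of the chloride channel and anoctamin genes, edgeR called none in the 4 comparisons. DESeq2 called Clcn5 for Gip-high against Gcg-high cells (adjusted p = 0.0356) and for the 3 classes against hormone-poor cells (0.04), and Clcn2 for the latter (0.0473), and edgeR called Ano7 there once SLX-11179 was left out (0.0145) or the low-count filter was dropped (4.77e-05). Clcn3, Clcn4 and Clcn5, exchangers of endosomes and vesicles, had 68.8 to 109, 25.6 to 58.1 and 20.4 to 43.7 CPM in Gcg-high sums and 79.6 to 94.5, 16.5 to 56.8 and 35.2 to 57.6 CPM in Pzp-positive sums. Clcn5 had 33.3, 109 and 49.9 CPM in Gip-high sums, and the difference of 1.60 from Gcg-high cells (SE 0.58) had an edgeR adjusted p of 0.238. Of the anoctamins, Ano6, a lipid scramblase, had 49.4, 100 and 109 CPM in Pzp-positive and 12.5, 16.9 and 57.8 CPM in Gcg-high sums, with an edgeR adjusted p of 0.999. Ano1, the classic calcium-activated chloride channel, had 20 reads in 17 cells.

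Counted over the members, calls were few in each comparison. For Gcg-high against Pzp-positive cells edgeR called 0 of 50 members, where 0.269% of the 9656 genes tested were called, 0.155% higher and 0.114% lower. By the same test 6 members, 12% of them, had an unadjusted p under 0.05, against 4.33% of all genes, and DESeq2 called 3 (Kcnmb2, Kcnc1 and Scn9a) against 1.21% of all genes. For Gip-high against Gcg-high cells 1 member was lower, Kcnk16, and none higher, against 1.12% of all genes in either direction, 0.394% higher and 0.725% lower. For Gip-high against Pzp-positive cells 3 were lower (Kcnk16, Kcnc1 and Scn3a) and none higher, against 2.86% in either direction, 1.1% higher and 1.76% lower. For the 3 classes against hormone-poor cells 3 of 60 members were higher (Kcnk16, Cacna2d1 and Kcnh6) and 3 lower (Kcnn4, Kcnq1ot1 and Kcnq1), against 4.41% of 11099 genes in either direction, 1.57% higher and 2.85% lower. An unadjusted p under 0.05 was found for 13, 15 and 18 members in the latter 3 comparisons, 26%, 30% and 30% of those tested, against 12.8%, 14.1% and 17.8% of all genes. Median log2 differences of the members tested were -0.19, 0.29, -0.04 and 0.22 in the 4 comparisons, beside 0.01, -0.24, -0.24 and -0.13 over all genes tested. The 2 Gip-high comparisons share the Gip-high sums.

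**Figure D4:**
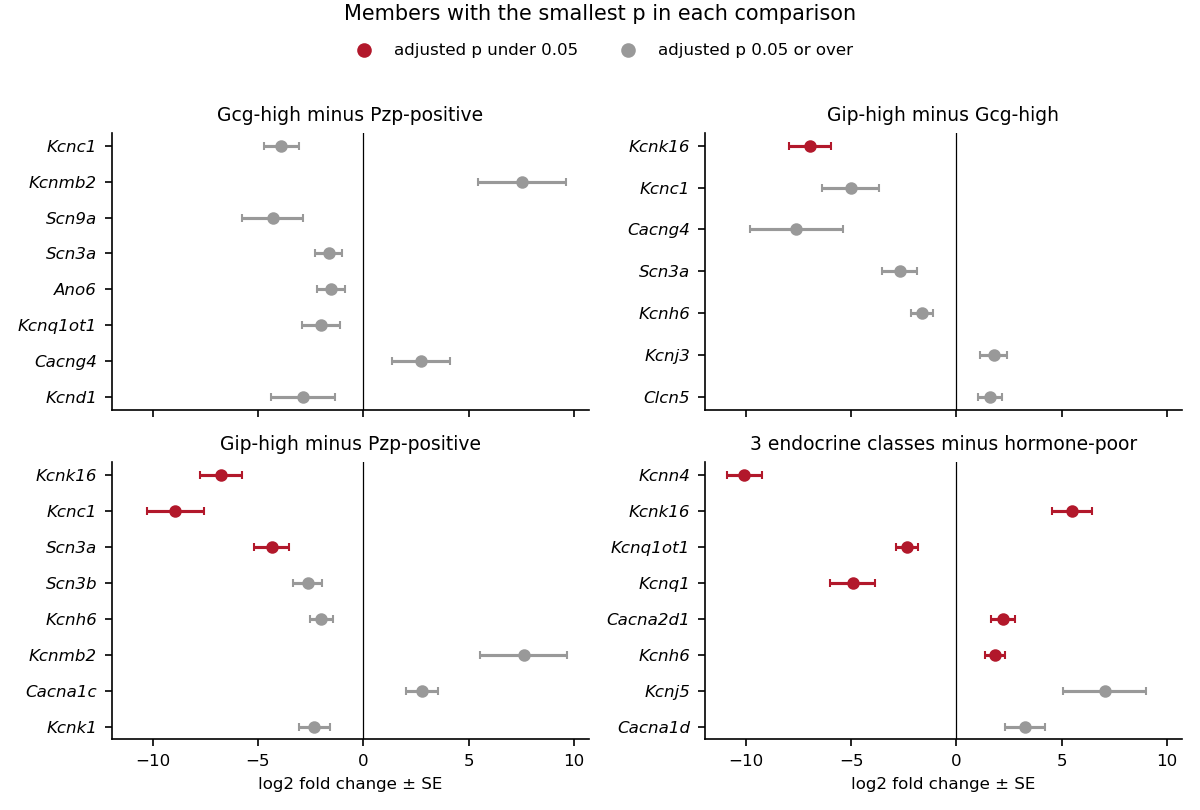
Log2 fold change with its standard error for the members of smallest p in the 4 comparisons, 8 in each less 1 not shown for Gip-high against Gcg-high cells, from edgeR over n = 3 pools; red points have an adjusted p under 0.05. Red appears for none, 1, 3 and 6 members. Values of genes with almost no reads in a class depend on the prior count.

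Within a class, single cells differed widely. After thinning each deep cell to 300000 reads, a median of 29 members had a read per Gcg-high cell, 28 per Gip-high, 35 per Pzp-positive, 32 per Cck-high and 28 per hormone-poor cell, while the median number of all genes was 6673, 5027.5, 6798.5, 6388 and 4941. Among deep Gcg-high cells Kcnk16 ran from 0 to 275 CPM with a median of 38.7 and Cacna1a from 10 to 312 CPM with a median of 135. Kcnc1 and Scn3a were both read in 27 of 28 deep Pzp-positive cells, and Kcnc1 and Kcnq1 in 18. Thinned to 20000 reads per cell over all pools, a read of Kcnc1 was found in 56.2% of Pzp-positive, 9.43% of Gcg-high and 4.55% of hormone-poor cells (75%, 20.8% and 18.2% before thinning, at median depths of 110677, 93670 and 74780.5 reads). For Kcnt1 the thinned share was 39.6% in Gcg-high, 9.38% in Pzp-positive and 6.06% in hormone-poor cells (60.4%, 20.3% and 13.6% before thinning).

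**Figure D5:**
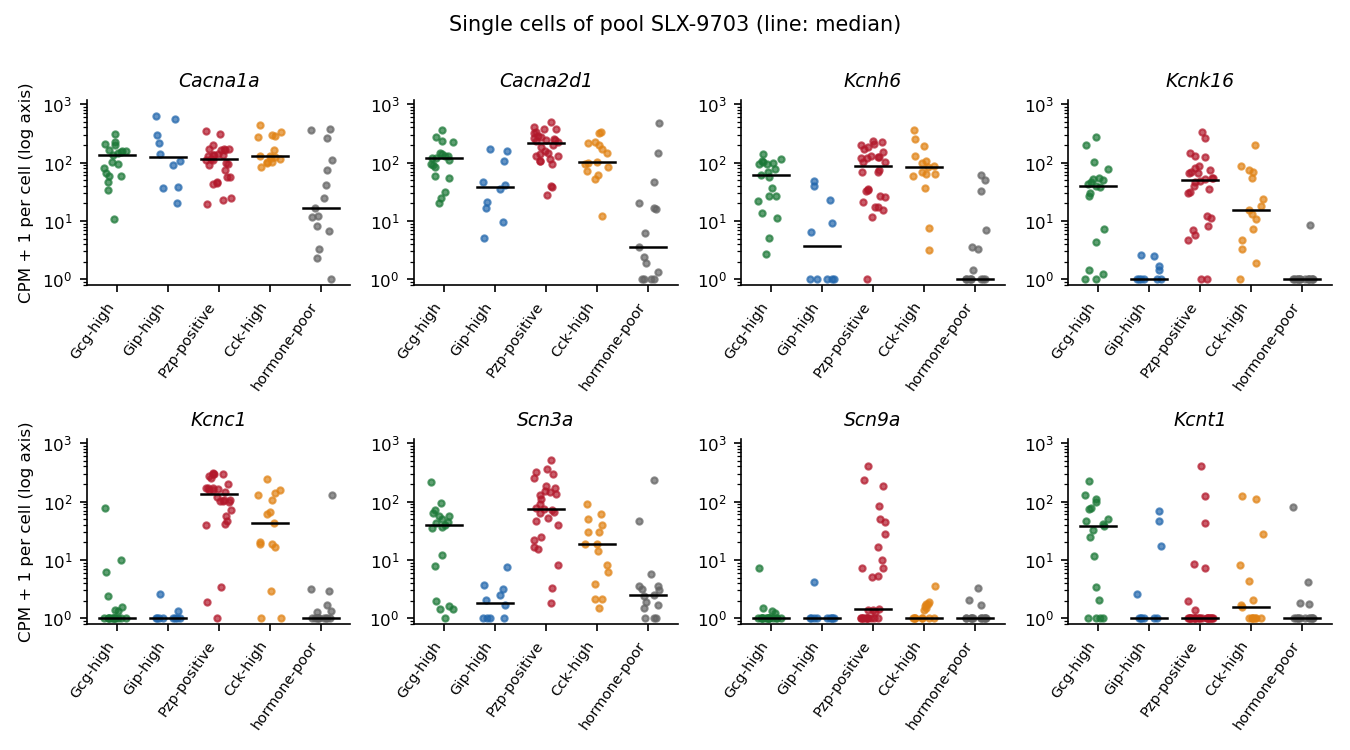
CPM plus 1 of 8 members in single cells of pool SLX-9703 on a log axis, by class, with a line at the median. Cacna1a is above 1 CPM in every endocrine cell, Kcnc1 is above 1 CPM in nearly all Pzp-positive cells, and Scn9a spreads from 0 to 407 CPM within that class.

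A list of 52 other channel and calcium genes was read with the same fits. Of the 28 tested between the endocrine classes, none was called for Gcg-high against Pzp-positive or Gip-high against Gcg-high cells, and 1 was higher and 1 lower in Gip-high than in Pzp-positive cells. The higher one was Abcc8, the sulphonylurea receptor of ATP-sensitive potassium channels, with 29.4, 51.8 and 41.1 CPM in Pzp-positive sums beside the Gip-high levels given above (edgeR adjusted p = 0.00243). The lower one was Orai2, a store-operated calcium channel, with no read in Gip-high and 14.1, 19.1 and 11.8 CPM in Pzp-positive sums (edgeR adjusted p = 0.0435). Of 35 tested against hormone-poor cells, Abcc8 alone was called, as higher in the endocrine classes (edgeR adjusted p = 0.00419).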

How the data were processed

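Single cells were sorted into plates, and cDNA was made by Smart-seq2, which reads whole transcripts and carries no molecular identifiers, so counting intervals cover counting error only. The deposited table holds raw counts of reads per gene that the authors made, with GSNAP, HTSeq 0.5.3p3 and build mm10 per the submitters' processing notes. Lines naming no gene held 77.59% of reads and 92 spike-ins 5.341%, and both were left out of library sizes. 4 columns of the table belong to no sample used here and were not used. Gene positions and union exon lengths came from GENCODE for the same build.

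Cells were filtered and classed as given above, no doublet caller was run, so wells with more than 1 cell may remain, and no 2 cells held identical counts. Sums of 3 or more cells were tested with edgeR 4.0.16 under R 4.3.3 (TMM, filterByExpr, quasi-likelihood test, Benjamini-Hochberg over all genes tested, threshold 0.05), with pool as a block, since the classes of a pool come from 1 mouse. Sums of the same pool deviated from class means with correlations of 0.0237 to 0.409 (median 0.0997), against a median of -0.102 between pools. Deviations from a class mean cancel over its pools, which lowers the correlations between pools, so that median is no separate support for the block. With pool in the model, the p-values rest on how far differences between classes varied from pool to pool, not on the spread between pools. Residual degrees of freedom were 4 for 3 classes and 6 for 4. The pool depths limit what the shallow sums can show: 3 reads in a sum are 0.0509 to 7.14 CPM.

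Named genes are all members called, the 8 of smallest p per comparison, the highest 2 per family and length, and of the other list those called and at most 5 more. Scn8a and the genes given only by read totals (Scn1a, Scn2a, Trpm5, Trpv1 and Ano1) fall outside this rule and were chosen after their values were seen. Results on some members are not reported here. The members, lists and tests were chosen with earlier results of these data known. Alternatives covered normalization, DESeq2 1.42.0, the low-count filter, the pool block, each pool left out, thinning, depth, mitochondrial and class thresholds, and 3 chosen after seeing the data (Gip-high cells with 100000 CPM or more, hormone-poor cells without a read of Ptprc, Coro1a or Cd3e, and read ratios without SLX-9703). The sequences are from RefSeq for GRCm38.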

Additional observations from a re-analysis of the deposited data

How the results depend on the processing

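Across 32 named member results and 460 alternative values none reversed its direction. These results were picked by small p in the same sums, and the alternatives share most of their reads, so kept directions were likely beforehand. Settings in which a gene fell out of the fit gave no value. The number of members called moved more. For Gcg-high against Pzp-positive cells it was 0, and it became 3 with DESeq2 and 1 each without TMM, without a low-count filter, with cells thinned to 20000 reads, with class thresholds of 30000 and 300 CPM and with cells of more than 1 threshold kept, Kcnc1 being that 1. For Gip-high against Gcg-high cells it was 1, and it became 8 with DESeq2, 2 without TMM, 2 without the filter, 0 with the higher thresholds and 0 with cells of more than 1 threshold kept. For Gip-high against Pzp-positive cells it was 3, and it became 10 with DESeq2, 7 without TMM, 7 without the filter, 5 with thinning and 5 with the higher thresholds. For the 3 classes against hormone-poor cells it was 6, and it became 13 with DESeq2, 14 without the filter, 1 with thinning (Scn4b, lower), 3 at no more than 10% mitochondrial reads and 2 with only the hormone-poor cells lacking a read of Ptprc, Coro1a or Cd3e (Kcnk16 and Scn4b). The share of all genes moved too. In the order of the 4 comparisons it was 0.269%, 1.12%, 2.86% and 4.41%, with DESeq2 1.21%, 5.68%, 8.25% and 10.5%, without TMM 0.249%, 2.48%, 6.73% and 3.86%, without the filter 0.244%, 0.87%, 1.58% and 5.62%, with thinning 1.95%, 6.02%, 10.3% and 5.58%, with the higher thresholds 0.493%, 0.889%, 2.59% and 4.28%, and with cells of more than 1 threshold kept 0.441%, 0.647%, 2.3% and 5.1%. Against hormone-poor cells it was 2% at no more than 10% mitochondrial reads and 2.61% without the cells holding a read of those 3 genes. Leaving out 1 pool at a time gave 0 to 0, 0 to 1, 0 to 3 and 1 to 5 members in the 4 comparisons, and 0.067% to 0.178%, 0.352% to 0.496%, 0.841% to 1.27% and 2.06% to 3.65% of all genes. Without the deep pool SLX-9703 no member was called between the endocrine classes and Kcnn4 alone against hormone-poor cells, without SLX-11179 Scn3a was not called, and without SLX-11175 3 members were called against hormone-poor cells. Without the replicate block for pool the counts were 0, 1, 3 and 5. Library sizes without TMM moved the median of all genes by -0.22, -0.57, -0.78 and 0.54 on the log2 scale. The causes were not tested. Depth limits the shallow pools most: in Gip-high sums 3 reads are 7.14 and 5.37 CPM there.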
